A study of Danio rerio with 2 samples.

Results

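Immediate early genes are transcribed within minutes of a stimulus such as a growth factor, a wound or handling of a tissue, from promoters that are already poised and without prior protein synthesis. Many of them encode transcription factors. Fos and Jun proteins pair to form AP-1, Egr1 is a zinc finger factor, and Atf3 is a stress-induced relative of Fos and Jun. The Krüppel-like factor genes klf2a and klf2b stand beside them because klf2 genes respond to fluid flow in endothelium, the cell layer that lines vessels and the heart.

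The names of the 10 genes described here were chosen with earlier results of these data known. Their rows were taken from 51544 features by name alone: fosab, fosaa, junba, junbb, atf3, egr1, ier2a, ier2b, klf2a and klf2b. Each had 1 row, with a symbol in the names table that matched directly for fosaa, egr1, ier2a, ier2b, atf3, klf2a and klf2b. The row named FOS was taken as fosab by a synonym. The rows named JUNB were told apart by their neighbours, since ENSDARG00000074378 shared 7 neighbouring genes with junba of the RefSeq table and 0 with junbb, and ENSDARG00000104773 shared 6 with junbb and 0 with junba. The mean level of all 10 genes reached 1 CPM (reads per 1e6 assigned reads), so none was lost to the filter on low values.

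The study set zebrafish lacking rbm24a, which encodes an RNA-binding protein, against wildtype, and its title concerns crystallins and a clear lens. RNA was sequenced from heads of AB strain embryos at 33 hours post fertilisation, severed anterior to the otic vesicle, from which the inner ear forms. There was 1 wildtype library of 14148577 assigned reads and 1 library of 16667612 reads from embryos homozygous for an 8 bp TALEN deletion in exon 1 of rbm24a, and no other treatment is labelled. The sources used here do not give the number of embryos behind each library or the time between cutting and lysis. The protocol in the labels mentions 3 independent samples, and how these relate to the single library of each group is not stated. Because each group is 1 library, there is no p-value, and each interval below is a 95% exact interval that covers counting error only. Copies made by PCR count more than once, which can make these intervals too narrow.

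rbm24a itself (ENSDARG00000102995) was counted 224 times in wildtype and 121 times in mutant heads, 2.18-fold lower in the latter (interval 1.74 to 2.74). Markers of head regions and cell types were summed in each library. Such sums are not per length, so they set libraries and not lists against each other. Forebrain, midbrain and eye genes summed to 921 wildtype and 1066 mutant CPM, and hindbrain, otic and trunk genes to 60.6 and 50.9 CPM. Otic genes were present although the cut lay anterior to the otic vesicle, with stm at 269 and 131 reads and oc90 at 84 and 215. Erythrocyte genes summed to 1213 wildtype and 287 mutant CPM, and heart muscle genes to 2.83 and 27.0 CPM. Fewer cells of a type and less RNA per cell cannot be told apart in head tissue.

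Most of the 10 genes had a somewhat higher level in the mutant library, and none passed 2-fold on the log2 scale. A log2 ratio here is log2 of (mutant CPM + 1) over (wildtype CPM + 1), and 2-fold means at least 1, or at most -1, on that scale. Of the 10 genes, 8 had a log2 ratio above 0, against 49.8% of the 18094 features whose mean reached 1 CPM. None was at or above 1, where 2.22% of features lay, and none at or below -1, where 2.82% lay. The median over the 10 genes was 0.35, with a range from -0.13 to 0.95, and over all features the median was -0.0013. The middle 50% of all features lay between log2 ratios of -0.22 and 0.22. The counting interval of the fold lay above 1 for 7 of the 10 genes, as it did for 21.8% of all features, and below 1 for 0 of the 10, as it did for 22.6%. Summed, the 10 genes had 1558 wildtype reads (110.1 CPM) and 2602 mutant reads (156 CPM). That sum was 1.42-fold higher in the mutant library (interval 1.33 to 1.51). Without klf2a and klf2b the other 8 genes summed to 83.3 wildtype and 109.5 mutant CPM, a fold of 1.315 (interval 1.22 to 1.42).

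**Figure D1:**
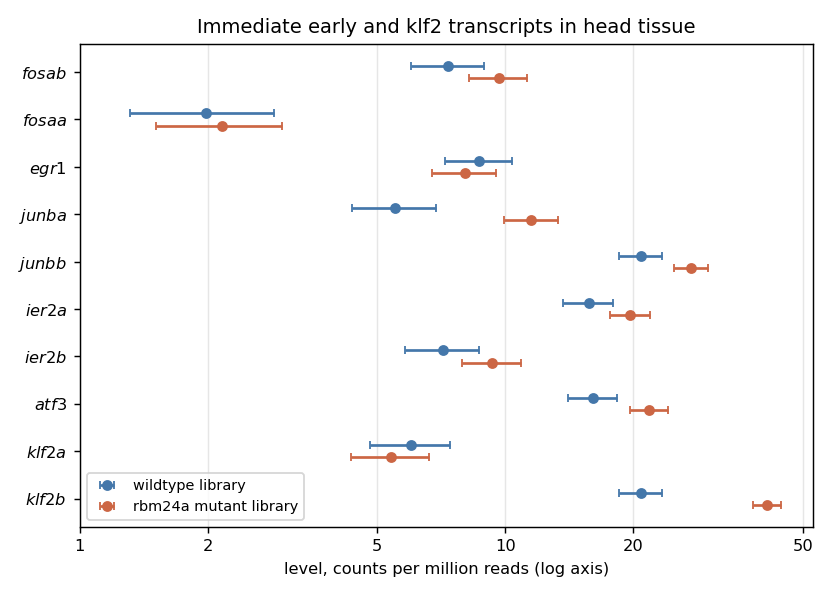
Level of each of the 10 genes in CPM (log axis) in the wildtype library (blue) and the rbm24a mutant library (orange). Points are 1 library each, and bars are 95% exact intervals of counting error. klf2b stood at 20.9 and 41.2 CPM and junba at 5.51 and 11.5 CPM, the largest ratios of the 10 genes.

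The fos genes differed more in level than in ratio, and fosab held most of their reads. fosab (ENSDARG00000031683), the copy closest in name to mammalian FOS, had 104 wildtype and 161 mutant reads, or 7.35 and 9.66 CPM. Its mutant level was 1.31-fold the wildtype level (interval 1.02 to 1.70), and its log2 ratio was 0.35. fosaa (ENSDARG00000040135) had 28 and 36 reads, or 1.98 and 2.16 CPM. Its fold of 1.09 had an interval of 0.648 to 1.86, so no difference was detectable at this depth. By RPKM (reads per kilobase and 1e6 reads) it had the lowest level of the 10 genes in both libraries, 0.30 wildtype and 0.33 mutant.

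The junb genes, which encode partners of Fos in AP-1, were both higher in the mutant library, and junba more so than junbb. junba (ENSDARG00000074378) had 78 wildtype and 192 mutant reads, or 5.51 and 11.5 CPM. This was 2.09-fold higher in the mutant library (interval 1.60 to 2.76). Its log2 ratio of 0.94 lay just under the threshold because of the added 1 CPM, and 2.53% of all features had a higher one. junbb (ENSDARG00000104773) had 295 and 456 reads, or 20.9 and 27.4 CPM, 1.31-fold higher (interval 1.13 to 1.52) and a log2 ratio of 0.38. junba thus took a larger share of the reads of the pair in the mutant library, 29.6% of 648 reads (interval 26.1% to 33.3%), than in the wildtype library, 20.9% of 373 reads (interval 16.9% to 25.4%). The fold of junba was 1.59 times that of junbb (interval 1.17 to 2.18).

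atf3 (ENSDARG00000007823), a stress-induced gene whose protein can pair with Jun, had 227 wildtype and 363 mutant reads. In CPM these were 16.04 and 21.8, a 1.36-fold higher mutant level (interval 1.15 to 1.61), and the log2 ratio was 0.42. Of all features, 12.5% had a higher log2 ratio.

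egr1 (ENSDARG00000037421), a zinc finger factor induced through ERK kinases, was level within counting error. It had 123 wildtype and 134 mutant reads, or 8.69 and 8.04 CPM. The fold was 0.925, with an interval of 0.719 to 1.19, and the log2 ratio was -0.10.

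The ier2 genes encode short nuclear proteins that appear early after growth factor stimulation. ier2a (ENSDARG00000099195) had 222 and 328 reads, or 15.7 and 19.7 CPM, 1.25-fold higher in mutant heads (interval 1.06 to 1.49). ier2b (ENSDARG00000086881) had 101 and 155 reads, or 7.14 and 9.299 CPM, 1.303-fold higher (interval 1.01 to 1.69). Their log2 ratios were 0.31 and 0.34. The copies kept nearly the same division of reads, with ier2a at 68.7% of the pair in the wildtype library (interval 63.4% to 73.8%) and 67.9% in the mutant library (interval 63.5% to 72.05%).

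The flow-sensitive klf2 genes went apart. klf2b (ENSDARG00000040432) had 295 wildtype and 687 mutant reads, or 20.9 and 41.2 CPM. It was 1.98-fold higher in the mutant library (interval 1.72 to 2.27), and its log2 ratio of 0.95 was the highest of the 10 genes, with 2.48% of all features above it. klf2a (ENSDARG00000042667), the copy known in zebrafish for its dependence on blood flow in the heart's valve-forming endocardium, had 85 and 90 reads, or 6.01 and 5.40 CPM. Its fold was 0.899, with an interval of 0.661 to 1.22, and its log2 ratio of -0.13 was the lowest of the 10. klf2b therefore made up 77.6% of the 380 klf2 reads in the wildtype library (interval 73.1% to 81.7%) and 88.4% of the 777 in the mutant library (interval 85.96% to 90.6%). The fold of klf2b was 2.199 times that of klf2a (interval 1.56 to 3.09), a comparison that does not depend on how the libraries are scaled.

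**Figure D2:**
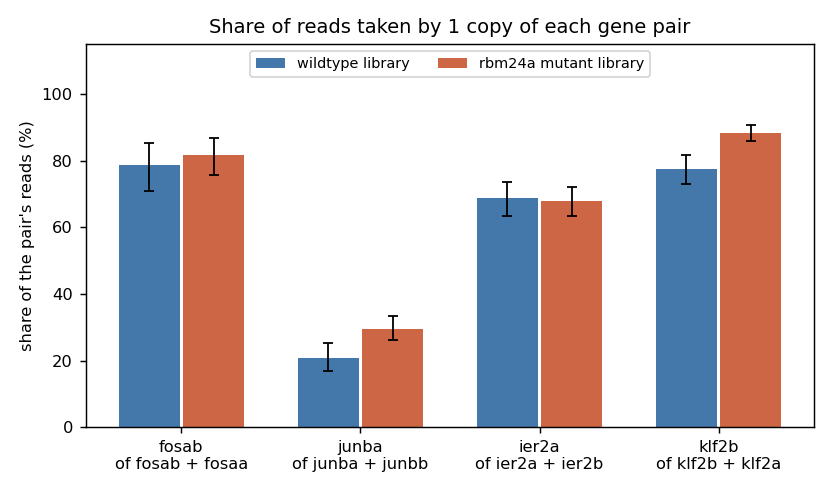
Share of the reads of each gene pair, in percent, that came from 1 copy in the wildtype library (blue) and the rbm24a mutant library (orange), with 95% Clopper-Pearson intervals of counting error as bars. The share of klf2b was 77.6% and 88.4% and that of junba 20.9% and 29.6%, while the intervals for the fos and ier2 pairs overlapped between libraries.

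For the fos pair the share of fosab was 78.8% in the wildtype library (interval 70.8% to 85.4%) and 81.7% in the mutant library (interval 75.6% to 86.9%). Of the 4 pairs, the interval of the ratio of folds left out 1 for junba over junbb and klf2b over klf2a. It held 1 for fosab over fosaa (1.204, interval 0.664 to 2.165) and for ier2a over ier2b (0.963, interval 0.702 to 1.32).

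**Figure D3:**
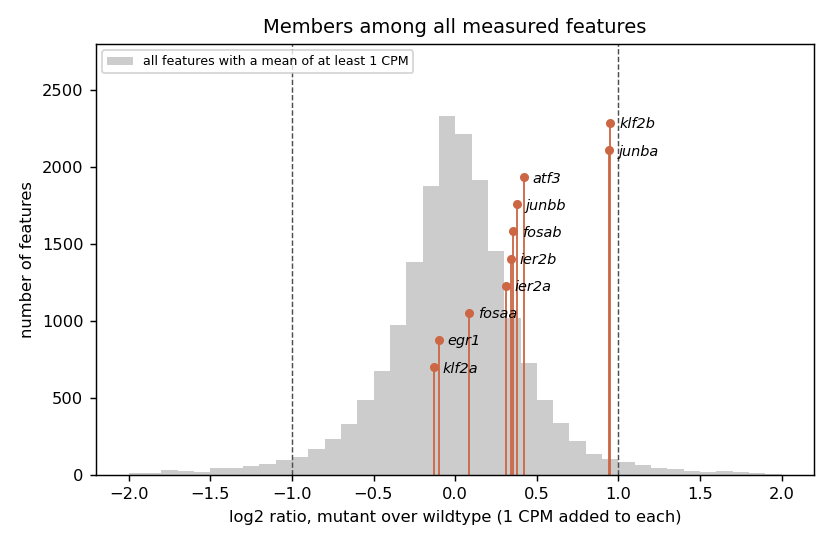
Histogram of the log2 ratio (mutant over wildtype library, 1 CPM added to each) of the features whose mean reached 1 CPM, drawn from -2 to 2, which leaves out 175 of them. Orange lines place the 10 genes, their height has no meaning, and dashed lines mark 2-fold; klf2b and junba lie just inside the upper line at 0.95 and 0.94, and egr1 and klf2a lie below 0.

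Levels of the 10 genes were set against each other only per length, with the deposited RPKM values. In the wildtype library the order was ier2a at 16.2 RPKM, junbb at 14.8, ier2b at 9.63, atf3 at 5.94, fosab at 3.61, klf2b at 3.30, klf2a at 2.76, egr1 at 2.75, junba at 2.27 and fosaa at 0.30. The counting intervals of ier2a and junbb overlapped, as did those of each neighbour from fosab down to junba. In the mutant library ier2a and junbb again came first, at 20.4 and 19.5 RPKM with overlapping intervals. klf2b there came next after ier2b and atf3, at 6.52 RPKM, above fosab and junba, both at 4.74 RPKM. egr1 and klf2a followed at 2.55 and 2.48 RPKM with overlapping intervals, and fosaa was last at 0.33 RPKM.

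The order per length rests on the length behind each RPKM, which for some genes is not the deposited length. For klf2b the RPKM values correspond to 6318 bp, more than the deposited 5753 bp, and for junba to 2429 bp against 1557 bp. ier2b is listed with 140255 bp, but its RPKM values correspond to 741 bp. By the deposited lengths klf2b, junba and fosab had nearly equal wildtype levels of 3.62, 3.54 and 3.45 CPM per kilobase. atf3, above all of these by RPKM, was then below them at 2.63 CPM per kilobase, and ier2b, at 0.0509, was below fosaa at 0.222. In the RefSeq table of another assembly, fosab, egr1 and junbb each overlap 1 other gene, and the strand setting of the counting is not given, so reads of such partners cannot be told apart from theirs.

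Set beside the other AP-1 genes, junbb and jun had the highest RPKM of the Jun genes in both libraries. This order and the shares below rest on the lengths behind the RPKM values, which were not checked for the added genes. Read counts, which are not per length, gave another order. jun had 895 wildtype and 923 mutant reads, jund 428 and 500, and junbb 295 and 456. jun, jund, fosb and fosl1 were named after their values were seen, and fosl1b, with 0 wildtype and 2 mutant reads, was left out. jun had 13.6 wildtype and 11.9 mutant RPKM, and its CPM fold was 0.875 (interval 0.798 to 0.961). jund was at 4.93 and 4.89 RPKM. fosl2, a Fos relative, was 1.64-fold lower by CPM in mutant heads (interval 1.34 to 2.013), at 1.12 and 0.69 RPKM. fosb at 0.56 and 0.53 RPKM and fosl1 at 0.80 and 1.14 RPKM were low. Of the summed RPKM of the 10 Fos, Jun and Atf3 genes, 47.9 wildtype and 56.5 mutant, junbb held 31.0% and 34.5%, jun 28.3% and 21.0%, and junba 4.74% and 8.39%.

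**Figure D4:**
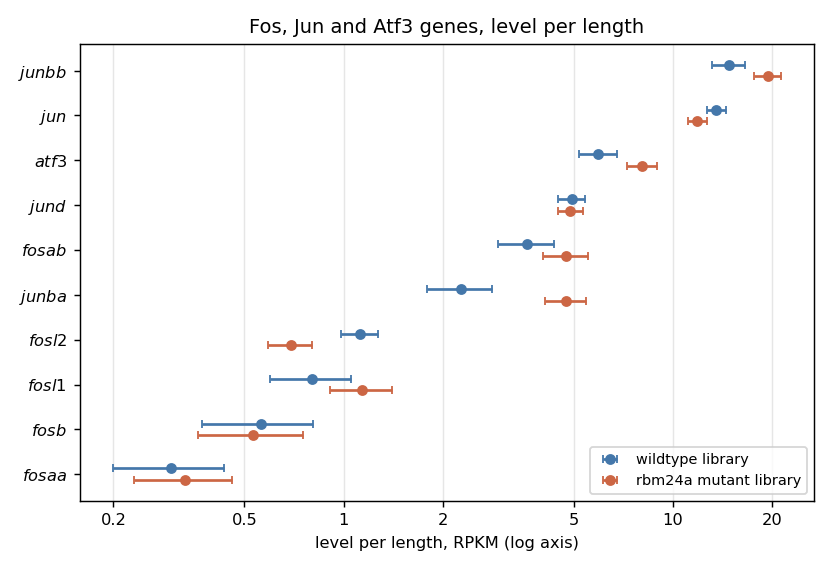
Level per length, in RPKM (log axis), of 10 Fos, Jun and Atf3 genes in the wildtype library (blue) and the rbm24a mutant library (orange), with 95% exact intervals of counting error. junbb was at 14.8 and 19.5 RPKM beside jun at 13.6 and 11.9, and fosl2 had the lower point in the mutant library.

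Other immediate early and early response genes lay on both sides of 0. Of 35 measured, none passed 2-fold in either direction, 14 lay above 0 and 21 below, and the median log2 ratio was -0.05. Over all features 2.22% were higher and 2.82% lower by 2-fold, which is the background for this list and the later ones. The largest ratios were those of a SOCS3 gene (ENSDARG00000026611), a feedback inhibitor of cytokine signalling, with 75 and 151 reads and a log2 ratio of 0.67, and of fosl2 at -0.66. A KLF11 gene (ENSDARG00000030844) was at 0.63, and an NR4A2 gene (ENSDARG00000017007), an orphan nuclear receptor, at -0.64 with 29 and 16 reads.

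Feedback inhibitors of MAPK signalling, the pathway that induces many immediate early genes, were divided. Of 13 measured, none passed 2-fold, 6 lay above 0 and 7 below, and the median was -0.01. SPRY4, SPRY1 and DUSP6, inhibitors that respond to FGF signalling, had log2 ratios of 0.66, 0.56 and 0.46. DUSP1, a MAPK phosphatase that is itself an immediate early gene, was at -0.35, with 143 wildtype and 112 mutant CPM.

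Kinases and transcription factors that induce immediate early genes had a median of -0.06 over 30 measured genes, with none past 2-fold, 9 above 0 and 21 below. MAP2K1, which encodes a kinase that activates ERK, had 285 and 568 reads and a log2 ratio of 0.73. MRTFB, a coactivator of serum response factor, was at 0.57 and a CREB1 gene (ENSDARG00000093420) at 0.51. An SRF gene (ENSDARG00000102867), for serum response factor itself, was at -0.52.

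Sensors, kinases and factors upstream of klf2 had a median of -0.04 over 20 measured genes, with 1 higher by 2-fold and 1 lower. Beside 2.22% and 2.82% of all features, 1 of 20 each way says little about the list. pkd1a, a polycystin gene, had 155 wildtype and 446 mutant reads, 2.44-fold higher (interval 2.03 to 2.95). mef2ab, a gene of the MEF2 factors that carry flow signals to klf2, had 57 wildtype and 21 mutant reads, a 3.198-fold lower mutant level (interval 1.91 to 5.55). A PIEZO2 gene, for a mechanically gated channel, was at a log2 ratio of 0.52, and heg1, a receptor of the cerebral cavernous malformation pathway that restrains klf2, at -0.45.

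Genes linked to klf2 and flow in endothelium had a median of -0.17 over 19 measured genes, none past 2-fold, with 6 above 0 and 13 below. HMOX1, haem oxygenase, had 70 and 37 reads and a log2 ratio of -0.89, and NFE2L2, a factor of the oxidative stress response, was at -0.50. WNT9B, a ligand gene tied to flow in valve formation, was at 0.61 with 28 and 59 reads, and CITED2 at 0.47.

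Endothelial markers, which bear on the tissue that holds the flow response, had a median log2 ratio of 0.21 over 21 measured genes, or 0.11 with deposited RPKM values. None passed 2-fold, and 15 lay above 0. MRC1, tek and ERG were at 0.83, 0.69 and 0.66, while a CLDN5 gene (ENSDARG00000043716) was at -0.95 and held 310 of the 632 CPM of the list in the wildtype library. The summed list was therefore lower in the mutant library (519 CPM), but without both CLDN5 genes, a choice made after seeing the values, it was 1.15-fold higher (interval 1.099 to 1.19), at 294 and 337 CPM. The list named only cldn5b, but both rows named CLDN5 counted for it and were not told apart. The row with 310 CPM may therefore be the other copy, which was not on the list.

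Blood and heart markers differed between the libraries beside klf2b. Of 16 measured erythrocyte genes, 12 were lower by 2-fold in the mutant library and none was higher, with a median of -1.84 that was -1.19 with a pseudocount of 5 CPM and -2.30 with 0.1 CPM. hbae3, an embryonic globin, had 546 and 84.2 CPM, SLC4A1 had 100.5 and 12.2 CPM, and hbae1.1 and hbae1.3 were at log2 ratios of -4.01 and -3.92. Of 5 measured heart genes, 4 were higher by 2-fold and none lower, with a median of 2.10. This median came to 3.43 with a pseudocount of 0.1 CPM, 0.87 with one of 5 CPM and 0.68 with no filter on low values. The 4 genes had wildtype levels of 0 to 0.57 CPM and passed the filter only through the mutant library. A heart gene this low in the wildtype library counted as measured only if it was high in the mutant library, so the filter partly sets this count. HAND2 had 7 and 119 reads, the row named MYH6 (ENSDARG00000079564) had 8 and 101, and MYH7 had 5 and 80. Another row, named myh6 (ENSDARG00000090637), went the other way with 4 and 0 reads and lay under the filter. MYL7 had 0 and 51 reads, 14.4-fold higher with its wildtype count set at a floor of 3, and the exact interval starts at 11.3. Of the 13 heart rows, 7 had 0 wildtype reads and 4 had 0 mutant reads. The part of these markers in the klf2b value was not tested. Leukocyte markers summed to 112 and 82.4 CPM, with lyz at -0.76, csf1ra at -0.58, MMP9 at -0.56 and an MFAP4 gene (ENSDARG00000088745) at 0.82. Of 9 measured leukocyte genes, none passed 2-fold, 3 lay above 0 and 6 below. Their median was -0.15, or -0.56 with a minimum of 5 CPM.

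**Figure D5:**
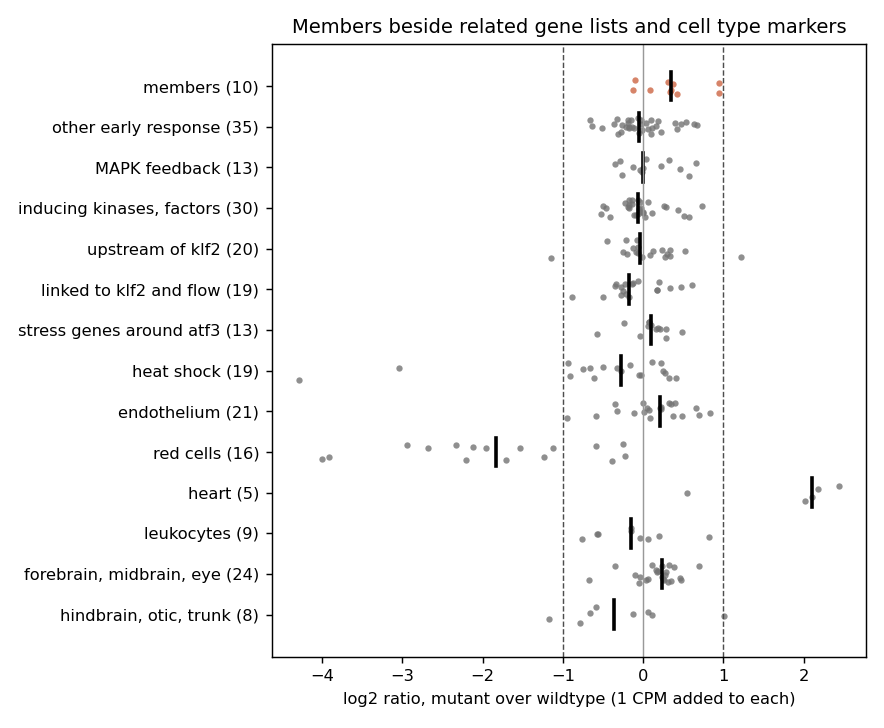
Log2 ratio (mutant over wildtype library, 1 CPM added to each) of the 10 genes (orange) and of each measured gene of 13 related lists (grey), with the number measured in brackets, medians as black bars and 2-fold as dashed lines. The median of the 10 genes was 0.35, those of the lists ranged from -1.84 for red cells to 2.10 for heart, and vertical scatter within a line has no meaning. The heart median rests on 5 genes and was 0.68 with no filter on low values.

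Of the stress genes, those around atf3 lay mostly a little above 0 and the heat shock genes mostly below it. The integrated stress response genes around atf3 had a median of 0.10 over 13 measured genes, none past 2-fold, with 10 above 0. CEBPB was at 0.48, DDIT3, a pro-apoptotic partner of the C/EBP factors, at 0.28, ppp1r15b at 0.28 and DDIT4 at -0.58. Heat shock genes, which also respond to handling and temperature, had a median of -0.28 over 19 measured genes, with 2 lower by 2-fold and none higher, and the median was -0.16 without the filter on low values. hsp70.3 had 1442 wildtype and 71 mutant reads, and hsp70l 173 and 10. An HSPA8 gene (ENSDARG00000037403) was at -0.92 and dnajb1a at -0.93. Near-identical hsp70 copies may share reads, so these single values are uncertain.

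Forebrain, midbrain and eye markers were mostly somewhat higher in the mutant library, and hindbrain, otic and trunk markers lay on both sides of 0. Of 24 measured forebrain, midbrain and eye genes, 19 lay above 0, none passed 2-fold, the median was 0.23 and the sum was 1.16-fold higher (interval 1.13 to 1.18). Among them DLX5 was at 0.69, an EN2 gene (ENSDARG00000038868) at 0.47, LHX2 at 0.46 and rx3 at -0.67. The hindbrain, otic and trunk genes summed to a fold of 0.841 (interval 0.764 to 0.926), from 60.6 to 50.9 CPM. stm alone fell by more than the sum did, from 19.0 to 7.86 CPM, while oc90 went from 5.94 to 12.9 CPM. Of 8 measured, 3 lay above 0, 1 was higher and 1 lower by 2-fold, and the median was -0.36, or 0.09 with a minimum of 5 CPM. Among them the otic genes stm and oc90 were at -1.18 and 1.003, and hoxb1a and HOXB3 at -0.66 and -0.79. The part of differences in dissection in the values of the 10 genes was not tested.

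None of the 10 genes is among the 37 genes, of 51544 features, that the authors' deposited table of mutant against wildtype lists (0 of 10). Every listed gene had a wildtype FPKM of at least 21.62, which is the lowest value found among them and not a known cutoff. ier2a, the highest of the 10 genes by RPKM, was at 16.2 in the wildtype and 20.4 in the mutant library. The FPKM and RPKM values may rest on different lengths, so they can be set side by side only roughly. The absence of the 10 genes cannot be read as a lack of change.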

How the data were processed

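Reads were assigned to features for 1 wildtype and 1 rbm24a mutant library. The submitters' processing notes name HISAT2 2.0.1, HTSeq 0.6.1, DESeq2, cutadapt and bcl2fastq, and the build GRCz11. What each tool did, which annotation was used and whether counting used strand is not given in the sources used here. The deposited table holds whole-number read counts per feature, not normalised, and the authors' RPKM values. The authors' deposited table of their comparison also gives FPKM, normalised counts (a signal), a fold ratio, its log2 and a p-value, which were not recomputed.

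Counts were divided by the library total of all features to give CPM. Log2 ratios used a pseudocount of 1 CPM and features whose mean reached 1 CPM. Folds are ratios of CPM without a pseudocount, with 95% Clopper-Pearson intervals (scipy 1.17.1), and levels carry exact Poisson intervals. The ratio of the folds of a gene pair has the exact conditional interval of an odds ratio. The log2 rule and the fold with its interval were tested on simulated counts that held counting error only. That test does not cover variation between libraries, and the other steps were not tested in this way. Of 293 list symbols, 182 matched exactly, 82 without a final a or b, where a name counted for both copies, and 29 did not match. Named were the 10 genes, rbm24a and up to 4 genes per list with the largest absolute log2 ratio, with exceptions marked. The 10 genes and the 13 lists were chosen with earlier results of these data known. No columns of other samples were present (0).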

Additional observations from a re-analysis of the deposited data

How the results depend on the processing

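No paired analysis was possible because there is 1 library per group, which also leaves none to drop. The log2 ratios of the 10 genes, the list medians and the counts at 2-fold were recomputed under 8 alternatives, wherever the gene or list still passed the filter. Folds and shares of gene pairs, summed folds, counts of intervals and orders by RPKM were not, and a comparison within a pair does not depend on the scaling of the libraries. No gene of the 10 took the other sign in 78 recomputed values, and their median ranged from 0.25 to 0.38. A change of pseudocount or filter cannot change the sign of a single gene, so only the other alternatives could have done so. junba left its counting interval with a pseudocount of 5 CPM (log2 ratio 0.65), and with a pseudocount of 0.1 CPM it passed 2-fold, so that 1 of the 10 genes was higher. Features higher by 2-fold numbered 402, but 672 with a pseudocount of 0.1 CPM, 97 with 5 CPM, 171 where the mean had to reach 5 CPM and 205 with deposited RPKM values. Features lower by 2-fold numbered 511, but 830, 164, 243 and 279 under the same settings. fosaa fell under the filter with RPKM values and with a minimum of 5 CPM. Of 103 recomputed list medians, 13 moved by over 0.1 and 4 took the other sign, 3 of them for MAPK feedback inhibitors, whose median stayed near 0, and 1 for hindbrain, otic and trunk genes (0.09 with a minimum of 5 CPM). The heart median was 0.68 without a filter, 0.87 with a pseudocount of 5 CPM and 3.43 with one of 0.1 CPM. Depth limits fosaa most, with 28 wildtype reads.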
